A study of Rhipicephalus microplus with 12 samples.

Results

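The transcripts described here are 133 of 13459 microarray probes (0.988%) whose signal stood at least 8-fold higher in the midgut than in the ovary and than in the salivary gland of feeding females of the cattle tick *Rhipicephalus microplus*. They were chosen from the deposited log2 ratios: the mean over the 4 midgut arrays had to lie at least 3 above the mean over the 4 ovary arrays and at least 3 above the mean over the 4 salivary gland arrays. The same rule turned to the ovary found 7 probes, and turned to the salivary gland it found 51. The values that chose the probes are the midgut minus ovary and midgut minus salivary gland differences, which are therefore given as a description with no test.

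Midgut, ovaries and salivary glands of adult females of the Mozambique strain, fed on Holstein-Friesian cattle, were harvested on day 20 of infestation. RNA of each tissue was labelled with Cy5 and hybridised beside a Cy3-labelled reference pool, which held tick life stages sampled on earlier days and female tissues of day 20. Each tissue had 2 biological replicates and each replicate had 2 arrays, so the 12 arrays hold n = 2 for every tissue. How many ticks made up a replicate is not stated, so p-values reflect the spread among these samples alone, part of which may be technical. A value is the log2 ratio of tissue to pool, with the direction likely from the dyes in the labels, so that 0 means the same level as in the pool.

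The midgut of hard ticks takes up the blood meal. Its digestive cells take in blood proteins and break haemoglobin down inside the cell with aspartic and cysteine proteases, and ticks depend on haem from the host. The ovary takes up yolk proteins and haem for the eggs, while the salivary gland returns water and delivers proteins that counter clotting and inflammation at the bite. In tissue RNA, fewer cells of a type and less RNA per cell cannot be told apart.

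Probes carry contig or sequence identifiers, and 0 of the 13459 identifiers were found in the RefSeq gene table of this species. No gene name or function is therefore given for a probe, the tissues could not be checked against marker genes, and probe sequences were not used here. Of the 133 midgut-enriched probes, 131 could be paired with an identifier and 2 could not, against 2764 (20.5%) that could not among all probes. Identifiers without a fold change in the authors' tables could not be paired, so this is not a difference in annotation. By kind of identifier, 104 of 7616 named contig probes met the rule (1.37%), 11 of 385 with a TC identifier (2.86%), 10 of 1415 with a CV identifier (0.707%), 5 of 1056 with a CK identifier (0.473%) and 1 of 22 with a U identifier. The authors' fold changes used every array for 96 of the 131 named probes (73.3%), against 66.7% of all named probes. Spots they left out on midgut arrays touched 15 of the 131 (11.5%), against 20.2% of all named probes. Contig278A was the only one of the 131 with an A or B ending, and the probe with the B ending of that contig could not be paired with values.

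Over all probes, 3 arrays had a median under 0, at -0.05 (second array of replicate 2, midgut), -0.03 (first array of replicate 1, ovary) and -0.03 (second array of replicate 2, ovary), while the other 9 lay between 0.08 and 0.39. Without these 3 arrays the rule found 131 probes, of which 125 were among the 133. Midgut and salivary gland were hybridised on 1 slide and ovary on another, so ovary and its slide cannot be told apart.

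In the midgut, the chosen probes stood far above the pool. Their median ratio was 2.37, with quartiles of 1.98 and 2.66, against a median of 0.25 over all probes. The median over the 133 probes was 2.24 and 2.28 on the arrays of midgut replicate 1 and 2.40 and 2.30 on those of replicate 2. In ovary the medians were -2.88 and -2.75 in replicate 1 and -2.90 and -3.28 in replicate 2. In salivary gland they were -1.54 and -1.32 in replicate 1 and -1.57 and -1.68 in replicate 2. The 4 midgut arrays thus gave nearly the same median, and the ovary arrays lay lowest.

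**Figure D1:**
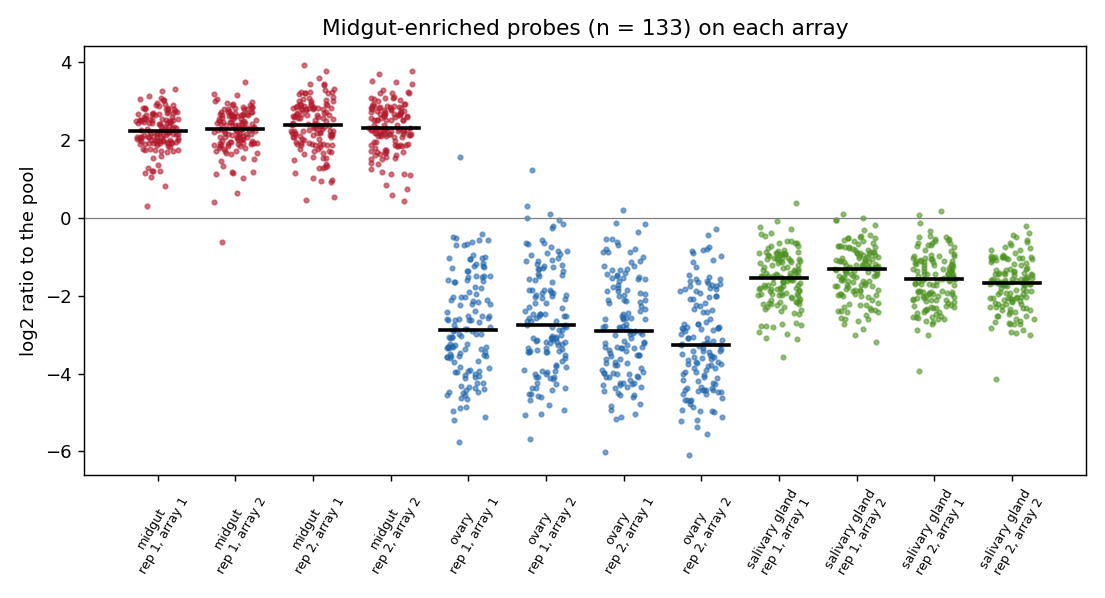
Log2 ratio to the pool (vertical axis) of the 133 midgut-enriched probes on each of the 12 arrays, with 1 point per probe and a black bar at the median. Midgut medians lie between 2.24 and 2.40, ovary medians between -3.28 and -2.75 and salivary gland medians between -1.68 and -1.32; the separation from midgut follows from the rule.

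The midgut mean is among the values that the rule used, so a high ratio to the pool largely follows from the choice of probes and is given as a description. All 133 probes had a midgut mean above 0, as had 60.9% of all probes. A midgut ratio of at least 2, that is, 4-fold over the pool, was reached by 96 of the 133, and these made up 49.2% of the 195 probes on the array that reached it. Of the 8 probes with a ratio of at least 3, 5 were among the 133. Across the 133 probes the SD of the ratio was 0.49 for midgut, against 1.27 for ovary and 0.62 for salivary gland, as deposited. Over all probes these SDs were 1.08, 1.22 and 0.71. The rule favours high midgut values, so the narrow midgut spread may follow from the choice of probes. With quantile normalization the SDs across the 133 were 1.02 for ovary and 0.83 for salivary gland. With scale normalization they were 1.11 and 0.87, so most of the gap between these 2 tissues depended on the scaling.

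Contig5387 had the highest midgut ratio to the pool in the group, which does not rank it by amount of transcript. Its ratios were 3.32 and 3.48 in midgut replicate 1 and 3.92 and 3.71 in replicate 2, a mean 12.2-fold over the pool. In ovary it had -0.50, -0.15, -0.12 and -1.13, and in salivary gland -0.09, -0.01, 0.07 and -0.20. Salivary gland thus lay near the pool's level and ovary below it, with a mean of -0.48. With only the spots the authors kept, ovary minus salivary gland moved from -0.42 to -0.74. Contig2603 came next, with 3.26, 3.18, 3.41 and 3.21 on the midgut arrays. The ovary arrays gave -0.71 and 0.31 in replicate 1 and -0.16 and -0.30 in replicate 2, and the salivary gland arrays -0.24, -0.74, -0.55 and -0.57. Repeat arrays of ovary replicate 1 thus lay on both sides of the pool's level, and with only the spots the authors kept the probe could not be fitted.

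At the other end, Contig2855 was barely above the pool in midgut, with 0.30, 0.42, 0.54 and 0.60 on the 4 arrays. It met the rule through low values elsewhere, with ovary at -3.38 ± 0.20 and salivary gland at -2.76 ± 0.42 (SD, n = 2 each). Contig2923 was similar, its midgut mean being 0.99 ± 0.38, its ovary mean -5.13 ± 0.33 and its salivary gland mean -2.67 ± 0.03. These were the only probes of the 133 with a midgut ratio under 1.

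The differences used by the rule were larger against the ovary. Midgut minus ovary had a median of 5.35 over the 133 probes and reached 7.03, and it was at least 5 for 73 of them. Against salivary gland the median was 3.84 and the highest value 5.09, and 1 probe, Contig5935, reached 5. On the whole array, 240 probes (1.78%) stood at least 3 above ovary and 147 (1.09%) at least 3 above salivary gland, and both differences share the midgut arrays. For 116 of the 133 probes (87.2%) the salivary gland was the nearer tissue as deposited. Their ovary mean lay below their salivary gland mean, as it did for 44.5% of all probes. With quantile normalization, described beside the ovary and salivary gland comparison, the medians were 4.44 against ovary and 4.22 against salivary gland.

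**Figure D2:**
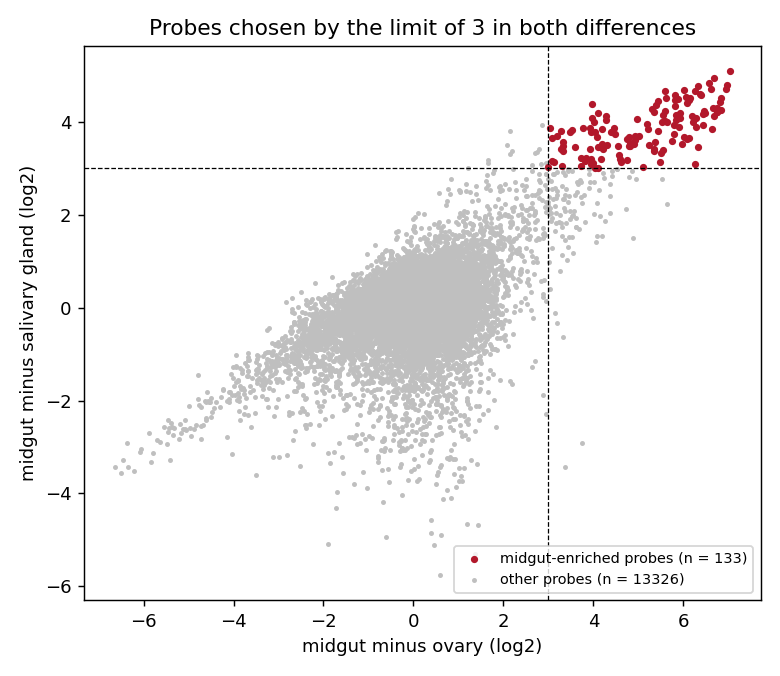
Midgut minus ovary (horizontal axis, log2) against midgut minus salivary gland (vertical axis, log2) for all 13459 probes, with the 133 chosen probes in red and dashed lines at the limit of 3. The chosen probes reach 7.03 on the ovary axis and 5.09 on the salivary gland axis.

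Contig5935 and Contig5086 stood farthest above both tissues. Contig5935 had 2.70, 2.73, 2.83 and 2.84 on the midgut arrays. It had -4.12, -3.95, -4.35 and -4.62 on the ovary arrays, and -1.96, -1.89, -2.59 and -2.84 on the salivary gland arrays. This probe was picked by the size of both differences, so the gap between its midgut arrays and the others follows from the choice. Contig5086 was 102.1-fold higher in midgut than in ovary and 31.0-fold higher than in salivary gland, with replicate SDs of 0.05 (midgut), 0.32 (ovary) and 0.23 (salivary gland), n = 2 each.

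At the limit of the rule, Contig7387 (smaller difference 3.003) and Contig7972 (3.003) lay just inside. Contig5040 (2.997) and Contig2504 (2.996) lay just outside. Contig7972 had midgut ratios of 2.67 and -0.62 in replicate 1 and 2.94 and 2.77 in replicate 2. The spot at -0.62 was left out of the authors' fold changes. Contig7387 met the limit in neither replicate taken alone.

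Applying the rule in 1 replicate number and reading the other showed how far the choice carried over. The replicate numbers do not tie samples of different tissues together. In replicate 1 alone the rule found 122 probes, and 102 of them (83.6%) also reached the limit in replicate 2, where their smaller difference had a median of 3.91 and a lowest value of 0.82. In replicate 2 alone it found 152 probes, of which 102 (67.1%) reached the limit in replicate 1, with a median of 3.39 and a lowest value of -1.04. All 102 were among the 133, which follows from the rule, since it averages the 2 replicates. Of the 133, a further 9 met the limit in replicate 1 only and 21 in replicate 2 only.

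Ratios give the level in the other tissues only relative to midgut. Expressed as a share of the midgut level, the ovary held a median of 2.46% and the salivary gland 7.00%. By sample, against the midgut mean, the medians were 2.74% and 2.40% in the ovary replicates and 7.25% and 6.65% in the salivary gland replicates. The ovary share ran from 0.764% to 12.5% and was under 2% for 50 probes. The salivary gland share ran from 2.93% to 12.5% and was under 2% for 0 probes. With quantile normalization the median shares were 4.604% in ovary and 5.37% in salivary gland, and with scale normalization 3.98% in ovary and 5.78% in salivary gland. Spot brightness was not used here, so a low level cannot be told from background.

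The next comparison asked whether the ovary and the salivary gland differed in what they held of these transcripts. Both tissue means entered the rule, so this difference is not independent of the choice of probes and is given as a description. The limma calls set it against the spread between replicates and do not account for that choice. On the whole array fewer probes passed the limit against salivary gland than against ovary, and the share of all probes called is not the share that probes chosen in this way would give without a difference. As deposited, 88 of the 133 probes (66.2%) were lower in ovary than in salivary gland at a limma adjusted p of 0.05, against 21.3% of all probes. A single probe, CV457123, was higher in ovary, against 21.6% of all probes, and 44 did not pass. The median ovary minus salivary gland difference was -1.34 over the 133 probes (quartiles -1.94 and -0.66) and 0.13 over all probes.

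This result depended on how the arrays are scaled. Salivary gland ratios spread less over all probes (SD of the tissue mean 0.71) than ovary ratios (1.22), as deposited. With quantile normalization, which gives every array the same distribution, 16 of the 133 were lower in ovary and 13 higher, against 15.6% and 18.3% of all probes, with a median of -0.03. With scale normalization, which gives every array the same median absolute value, 28 were lower and 8 higher, against 16% and 16.7% of all probes, with a median of -0.29. The 16 were lower as deposited and with both normalizations, and CV457123 was higher in all 3. Matching shares of all probes are not given here, so the 16 cannot be set against the whole array. Ranked by tissue mean among all probes, the 133 had a median percentile of 3.14 in ovary and 3.44 in salivary gland. The ranks lay close together. The majority direction as deposited was nearly absent with quantile normalization and much smaller with scale normalization. With arrays centred on their medians, which leaves their spread unchanged, it stayed, with a median of -1.42. Which scaling is right was not tested.

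**Figure D3:**
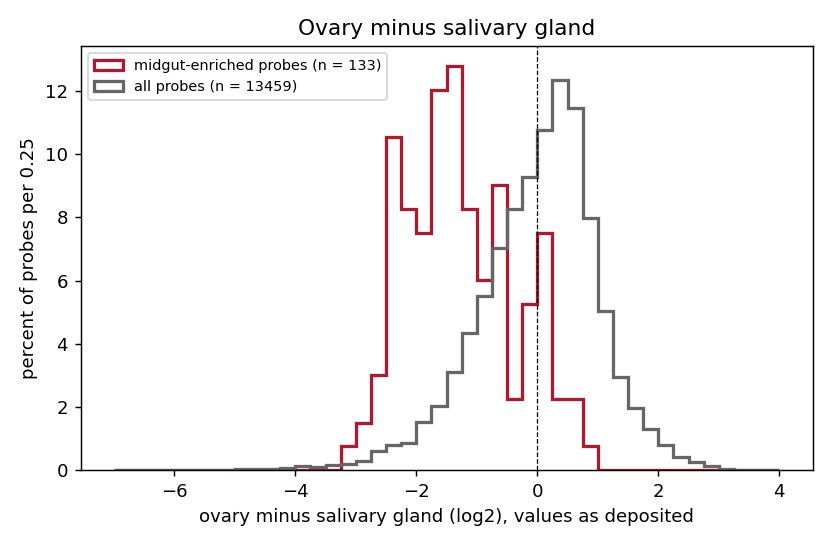
Share of probes (vertical axis, percent per bin of 0.25) by ovary minus salivary gland difference (horizontal axis, log2, values as deposited), for the 133 midgut-enriched probes in red and all 13459 probes in grey. The median is -1.34 for the 133 probes and 0.13 for all probes.

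**Figure D4:**
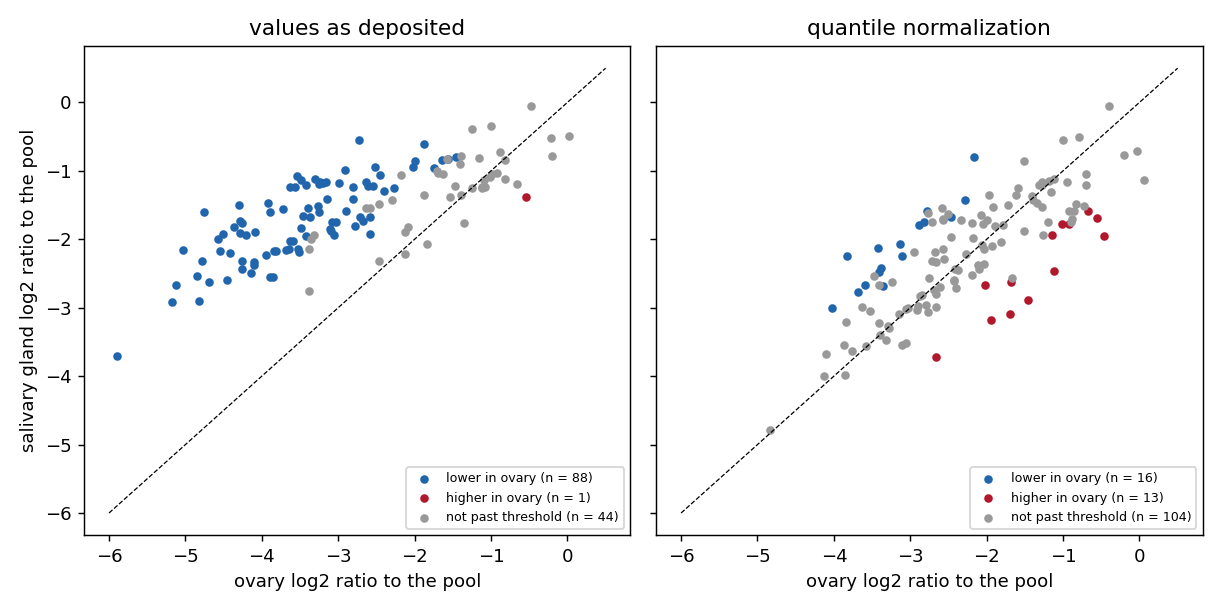
Ovary (horizontal axis) against salivary gland (vertical axis) log2 ratios of the 133 midgut-enriched probes, as deposited (left) and after quantile normalization (right), with equal values on the dashed line and colours for the limma call at an adjusted p of 0.05. Lower in ovary are 88 probes on the left and 16 on the right, and higher in ovary are 1 and 13.

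The largest deficit in ovary as deposited was at Contig8127, and its call held under every scaling tried. Its ratios were -4.88, -4.67, -4.54 and -4.95 on the ovary arrays, against -1.45, -1.51, -1.68 and -1.73 on the salivary gland arrays. Replicates without overlap were a condition for naming Contig8127, TC17851 and CV457123 here. On the midgut arrays Contig8127 had 1.16 and 1.12 in replicate 1 and 1.87 and 1.88 in replicate 2. Ovary minus salivary gland was -3.17 (SE 0.27, limma adjusted p = 0.000812), an 8.97-fold difference, and -1.59 and -1.96 with quantile and scale normalization (limma adjusted p = 0.00772 and 0.0051). Among probes paired with an identifier TC17851 followed as deposited, with -2.80 (SE 0.21, limma adjusted p = 0.000623), and with -1.30 and -1.66 under those normalizations.

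CV457123 ran the other way. It had -0.70, -0.65, -0.36 and -0.44 on the ovary arrays, against -1.06, -1.11, -1.72 and -1.65 on the salivary gland arrays. The difference was 0.85 (SE 0.28, limma adjusted p = 0.0442), and 1.49 and 1.47 with quantile and scale normalization. The call was lost with a replicate block, with first or repeat arrays only, with centred arrays and without ovary replicate 1 (0.99), ovary replicate 2 (0.71) or salivary gland replicate 2 (0.54).

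For Contig5935 the difference was -1.94 (limma adjusted p = 0.00308) as deposited and -0.18 with quantile normalization (limma adjusted p = 0.705), so the call ended there. Contig5086 changed in the same way, with -1.72 and -0.051, and so did Contig278A, with -1.60 and -0.043.

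The 88 probes called lower in ovary as deposited and the 44 that did not pass had similar midgut ratios to the pool, with medians of 2.36 and 2.41. Their ovary medians were -3.49 and -1.41, and their salivary gland medians were -1.74 and -1.20. The call itself formed these groups, so a lower ovary median in the first largely follows from it. Across the 133 probes, ovary and salivary gland means, which both entered the rule, correlated with Pearson's r of 0.764, against 0.561 across all 13459. Probes share the pool and the samples and are not independent replicates. The authors' deposited table lists 100 of the 131 named probes as lower in ovary at an adjusted p of 0.05, against 34.8% of its probes, and 3 as higher, against 30.1%; it rests on the same arrays and the same scaling.

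A further feature that the rule did not use is the difference between the 2 midgut replicates. There is 1 sample on each side, so these are values with no test. At least 2-fold apart were 12 of the 133 probes (9.02%), against 5.71% of all probes, with 8 higher in replicate 2 (against 0.706% of all probes) and 4 lower (against 5%). The arrays of the replicates did not overlap at any of the 12, nor at 667 of the 768 probes of the whole array that were 2-fold apart. Over all probes, replicate 2 lay 0.11 below replicate 1 in the median, and over the 133 it lay 0.09 above. Without the repeat array of midgut replicate 2, 13 of the 133 and 2.48% of all probes were 2-fold apart, and with only the spots the authors kept, 11 of 128 and 1.58%.

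Contig1086 had 1.29 and 1.33 in midgut replicate 1 and 3.20 and 3.10 in replicate 2, a difference of 1.84 between replicates. Contig5662 was the reverse, with 2.52 and 2.52 in replicate 1 and 0.46 and 0.42 in replicate 2, a difference of -2.08. Contig4369 had 2.20 and 2.28 in replicate 1, and 0.98 and 0.74 in replicate 2. In each of these probes both arrays of a replicate gave nearly the same value, so the gap lay between the samples and not between repeat arrays. At Contig7972, which had a difference of 1.83, it rested on the single spot at -0.62. These 4 were chosen after their values had been seen.

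**Figure D5:**
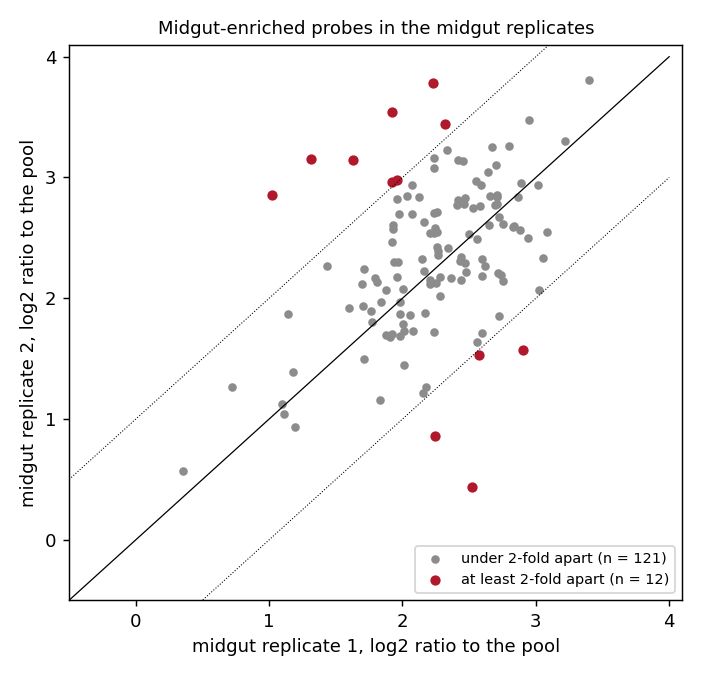
Log2 ratio to the pool in midgut replicate 1 (horizontal axis) and replicate 2 (vertical axis) for the 133 midgut-enriched probes, each the mean of 2 arrays, with the line of equality and dotted lines at 2-fold. Red marks the 12 probes at least 2-fold apart, 8 above the line and 4 below it.

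In ovary, 8 of the 133 probes (6.02%) were at least 2-fold apart between replicates, against 2.27% of all probes; 1 was higher in replicate 2 (against 0.981%) and 7 lower (against 1.29%). In salivary gland there were 4 (3.01%), against 3.54%, with 2 higher in replicate 2 (against 1.42%) and 2 lower (against 2.12%). The median of replicate 2 minus replicate 1 over the 133 was -0.31 in ovary and -0.22 in salivary gland, against -0.04 and -0.03 over all probes. Contig4552 was the single probe of the 133 with an ovary mean above 0, at 0.02. Its ovary ratios were -0.52 and 1.23 in replicate 1 and 0.19 and -0.83 in replicate 2. Repeat arrays of the same RNA thus differed widely there.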

How the data were processed

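Tissue RNA was measured on 12 arrays of 2 colours, and precision is limited by their number. The authors deposited 1 log2 ratio per probe and array. They used limma, per the submitters' processing notes; for background correction and normalization, nothing is given in the sources used here. Comparison tables that the authors deposited hold log2 fold changes and adjusted p-values for 10695 identifiers, per the file headers. Lines of the value table carry only numbers, so identifiers were paired through those fold changes (matched within 2e-08 by a difference between tissue means of all or some arrays). All 10695 found a line, with 0 ambiguous pairs and 0 hits for mismatched decoys. Arrays of a replicate were averaged, and tissue means were fitted to the 6 samples in R 4.3.3 by limma 3.58.1 (lmFit and eBayes, with Benjamini-Hochberg adjustment over 13459 probes, threshold 0.05), with 3 residual degrees of freedom. With 2 samples against 2, the smallest p of an exact permutation test is 0.33. On simulated data for ovary minus salivary gland (13459 probes, of which 200 were changed), the fit found 0% of log2 changes of 1 (0 false calls) and 81% of log2 changes of 2 (3 false calls). In the data far more probes were called, 21.3% lower and 21.6% higher in ovary, which makes the adjustment less strict. The simulated shares therefore do not carry over, and differences under 1 were called, such as 0.85 at CV457123. Same-numbered replicates deviated with r of -0.029, 0.034 and 0.101, which does not pair them. Alternatives covered repeat arrays, scaling, left-out arrays or replicates, a replicate block, thresholds, and the probes or spots the authors kept. The value table does not allow another background correction or a filter on dim spots, and no slide term can be fitted. Named probes followed a fixed rule: by both differences, by ovary minus salivary gland among calls without overlap, by midgut ratio (2 at each end), by nearness to the limit, and contigs with several probes. Contig4552 and the 4 probes for the midgut replicates were added after their values were seen. Probes, lists and tests were chosen with earlier results of these data known. Figures used matplotlib 3.10.9; tables used Python 3.11.15 with numpy 2.4.6 and pandas 2.3.3.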

Additional observations from a re-analysis of the deposited data

Results flagged for a closer look

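Among 54 sets of 4 arrays (each tissue's medians over the 133 probes and the named probes), 2 held an array far from the other 3, and chance alone would mark about 1 in 20. Contig7972 had -0.618 on the repeat array of midgut replicate 1, against 2.67 to 2.94 on the other midgut arrays. Contig2855 had -3.85 on the repeat array of ovary replicate 2, against -3.26 to -3.21 on the other ovary arrays.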

How the results depend on the processing

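The count of midgut-enriched probes (133) stayed within 1.5 times under the alternatives run, from 89 with a limit of 3.5 to 188 with a limit of 2.5. The count lower in ovary than in salivary gland was 88, and 16 with quantile and 28 with scale normalization; elsewhere it was 60 to 95, with 60 without ovary replicate 2. The count higher in ovary was 1, but 13 with quantile and 8 with scale normalization, 3 without the 3 arrays, 2 with the replicate as a random effect or with trend and robust moderation, and 0 with first arrays, repeat arrays, centred arrays, an adjusted p of 0.01, a 2-fold limit, the replicate block, or without ovary replicate 1, ovary replicate 2 or salivary gland replicate 2 (0 to 1 when leaving out 1 replicate). Shares of all probes called are given only as deposited and with quantile and scale normalization. Counts under the other settings thus cannot be set against the whole array. With the replicate block, 92 were lower in ovary and the median difference was -1.34. That median was -0.030 with quantile and -0.29 with scale normalization, and -1.55 to -1.14 when leaving out 1 replicate. The median midgut ratio of 2.37 was 2.17 with centred arrays, 2.14 with quantile, 2.01 with scale normalization and 2.25 to 2.37 when leaving out 1 replicate. The median over all probes, 0.13 as deposited, moved by over 0.1 with quantile (-0.032) and scale normalization (-0.062), without the 3 arrays (0.33), with only the probes in the authors' tables (-0.060) and with only the spots they kept (-0.12). Among named probes, direction reversed at Contig2603 with first arrays only (-0.045), at Contig7387 with first arrays (-0.017), centred arrays (-0.040) and without ovary replicate 2 (-0.17) or salivary gland replicate 2 (-0.32; up to 0.39 without salivary gland replicate 1), and at Contig2855 with quantile (1.07) and scale normalization (0.86). The cause of these shifts was not tested.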
